A study of Homo sapiens with 3 samples.

Results

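The miR-181 family was followed in the human melanoma cell line SK-MEL-2. Its 5 members were taken by name from the deposited lists: the 5p arms hsa-miR-181a-5p, hsa-miR-181b-5p, hsa-miR-181c-5p and hsa-miR-181d-5p, and hsa-miR-181a-3p, the opposite arm of a miR-181a hairpin. The species prefix hsa is left out from here on. They are 5 of the 2588 mature miRNAs listed for every library. The cells had no plasma exposure (control), or 3 min or 5 min under a plasma jet, which blows weakly ionised gas over the culture without heating it much, and RNA was taken on Day 2. Each of the 3 groups was 1 library, so no value below has a replicate check, and a library and its exposure cannot be told apart. All groups were grown in serum-containing medium with antibiotics, and the labels name no other agent and no genetic change.

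A miRNA is cut from a hairpin precursor whose arms, 5p and 3p, each can be loaded into an Argonaute protein. The loaded strand pairs with messenger RNAs mainly through its seed, bases 2 to 8, and lowers their translation and stability. The miR-181 family is best known from lymphocytes, where in mice miR-181a sets the sensitivity of the T cell receptor by repressing several phosphatases, and it is also abundant in brain. miR-181b dampens NF-kB signalling in endothelial cells through the importin KPNA4, miR-181d represses the DNA repair enzyme MGMT in glioma cells, and in rat heart miR-181c acts on a mitochondrial transcript.

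The members' sequences are printed because their near-identity decides which reads can be told apart. All sequences are from RefSeq on GRCh38, which matched 5 of 5 members, are written 5′ to 3′, and carry the seed in capitals.
miR-181a-5p: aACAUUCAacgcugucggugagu
miR-181c-5p: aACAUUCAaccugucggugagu
miR-181b-5p: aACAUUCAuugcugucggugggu
miR-181d-5p: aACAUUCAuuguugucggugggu
miR-181a-3p: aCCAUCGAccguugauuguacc

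The 4 5p arms share 1 seed, whereas miR-181a-3p has another. Outside the seed they fall into close pairs. Counting positions from 1 at the 5′ end, miR-181b-5p and miR-181d-5p differ by 1 substitution, C12U, with the base of miR-181b-5p first. miR-181a-5p and miR-181c-5p are 1 edit apart, at 23 and 22 bases. miR-181a-5p and miR-181b-5p differ by 3 substitutions, A9U, C10U and A21G, with the base of miR-181a-5p first. The treatment of reads that fit several miRNAs is not given in the sources used here, so the separate values of each close pair are uncertain. Among the listed miRNAs found in the RefSeq table, 5 carry this seed. The fifth is miR-4262, from chromosome 2, which had 0 counts in all 3 libraries.

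The family is encoded by 6 hairpins in 3 pairs. MIR181A1 (chr1:198859044-198859153) and MIR181B1 (chr1:198858873-198858982) lie on the minus strand 61 bases apart in an intron of the long noncoding RNA MIR181A1HG. MIR181A2 (chr9:124692442-124692551) and MIR181B2 (chr9:124693710-124693798) lie on the plus strand 1158 bases apart in an intron of MIR181A2HG, opposite an intron of NR6A1, a nuclear receptor gene. MIR181C (chr19:13874699-13874808) and MIR181D (chr19:13874875-13875011) lie on the plus strand 66 bases apart in an intron of NANOS3, a germ cell gene, in the GENCODE annotation of GRCh38. Mature miR-181a-5p and miR-181b-5p have the same sequence whether they come from chromosome 1 or chromosome 9, so their counts cannot be assigned to a locus. The 3p arms do differ between loci. Both miR-181a hairpins are printed with their mature arms in capitals to show this.
MIR181A1: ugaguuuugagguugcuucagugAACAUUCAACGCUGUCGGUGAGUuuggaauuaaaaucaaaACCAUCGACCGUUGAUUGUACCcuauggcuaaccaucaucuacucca
MIR181A2: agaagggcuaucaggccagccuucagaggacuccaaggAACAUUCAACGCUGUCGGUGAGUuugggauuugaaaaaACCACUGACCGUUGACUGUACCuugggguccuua

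The first capital run is miR-181a-5p in both. The second is miR-181a-3p in MIR181A1 and miR-181a-2-3p in MIR181A2, which differ by U5C, C6U and U16C, with the base of miR-181a-3p first.

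Library totals were 1045482 counts (control), 966943 counts (3 min plasma) and 615645 counts (5 min plasma). Levels are given as CPM, counts set to a common library size, and were scaled further by TMM, a method that evens out libraries on a shared set of miRNAs. Here the set was the 231 miRNAs averaging 20 counts or more over the 3 libraries, so some had few counts in 1 of them. On this scale 1 count was worth 0.956, 1.04 and 1.61 CPM in order of exposure. All intervals are exact 95% intervals for counting error alone, which leaves out differences between cultures and PCR copies. The levels are relative to the other miRNAs of a library and do not give amounts per cell. In these bulk libraries, a smaller part of cells carrying a miRNA and less of it per cell cannot be told apart. Of 7 melanocyte lineage miRNAs, 3 were detected, with summed levels of 3877, 4250 and 3964 CPM in order of exposure. Within this sum the members differed: miR-204-5p had 2493, 2645 and 2025 CPM, miR-211-5p 122, 101 and 105 CPM, and miR-146a-5p 1261, 1504 and 1835 CPM. The other 4 (miR-506-3p, miR-508-3p, miR-509-3p and miR-514a-3p) were at 0 in every library. Of 7 blood cell miRNAs, which mark a lineage that also carries miR-181, 6 were detected, at 17, 21 and 14 counts in all, or 16.3, 21.9 and 22.6 CPM, and miR-223-3p was at 0. Of 6 epithelial miRNAs, 5 were detected, and their sum was 15, 24 and 40 counts, or 14.3, 25.0 and 64.4 CPM, in order of exposure, with miR-205-5p at 0. Most of this sum was miR-200b-3p, at 6, 13 and 20 counts, and miR-200c-3p, at 6, 8 and 17. miR-200a-3p had 2, 2 and 2 counts, miR-141-3p 1, 0 and 1, and miR-429 0, 1 and 0. The part of blood or epithelial cells in the miR-181 values was not tested.

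The 5p arms miR-181a-5p, miR-181b-5p and miR-181d-5p were moderately abundant, miR-181a-3p was scarcer and miR-181c-5p was near the limit of detection. miR-181a-5p had 583, 647 and 534 counts at 0, 3 and 5 min, which are 557 (513 to 605), 675 (624 to 729) and 860.2 CPM (789 to 936). The levels stand in order of exposure, and the intervals of the control and the 3 min library do not overlap each other or that of the 5 min library. miR-181a-5p ranked 82, 75 and 67 by counts among the 639, 663 and 708 miRNAs detected in these libraries.

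miR-181b-5p had 694, 657 and 490 counts, or 663 (615 to 715), 685 (634 to 740) and 789 CPM (721 to 862), in order of exposure. The control and 3 min intervals overlap widely, while the 5 min interval lies above that of the control. Its rank was 74, 74 and 70.

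miR-181d-5p had 410, 413 and 287 counts, or 392 (355 to 432), 431 (390.3 to 475) and 462 CPM (410.4 to 519). These 3 intervals overlap, and its rank moved little, at 93, 91 and 92. By name, miR-181d-5p had the most counts of the chromosome 19 arms in these files. It is 1 base from the more abundant miR-181b-5p, and the treatment of reads that fit several miRNAs is not given. Whether all its reads came from chromosome 19 is therefore uncertain.

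miR-181c-5p had 6, 4 and 3 counts, or 5.74 (2.11 to 12.5), 4.17 (1.14 to 10.7) and 4.83 CPM (0.997 to 14.1). A floor of 3 counts corresponds to 2.87, 3.13 and 4.83 CPM, so the 5 min value is at that floor.

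miR-181a-3p had 83, 87 and 62 counts, or 79.4 (63.2 to 98.4), 90.8 (72.7 to 112) and 99.9 CPM (76.6 to 128). The values again stand in order of exposure, but all 3 intervals overlap.

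**Figure D1:**
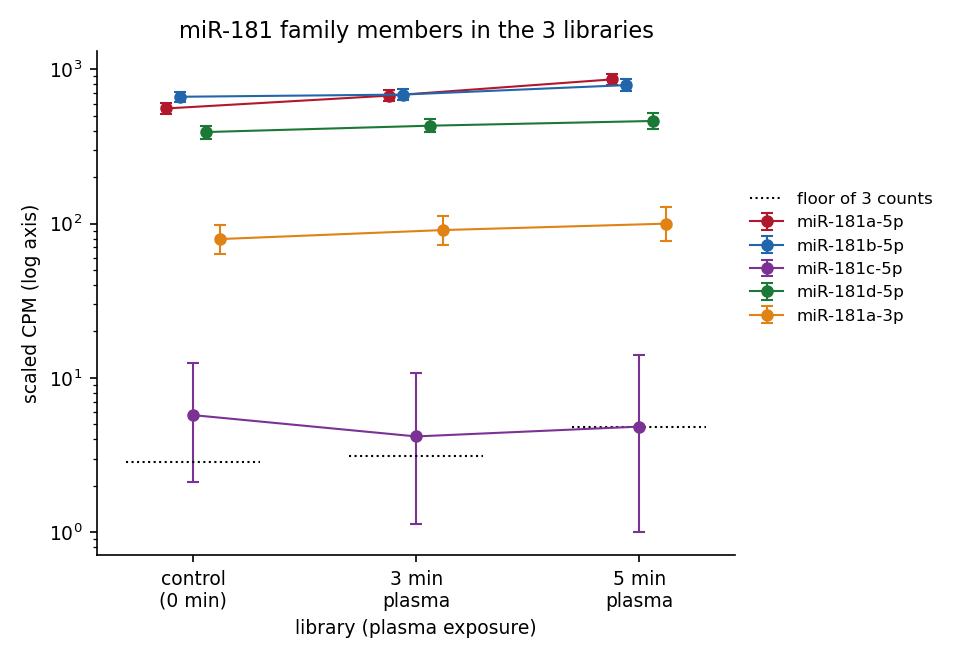
Scaled CPM (log axis) of the 5 miR-181 members in the control, 3 min and 5 min libraries, 1 library each; points are values, bars are exact 95% counting intervals and dotted lines the level of 3 counts. miR-181a-5p lies below miR-181b-5p in the control (557 against 663 CPM) and above it after 5 min (860.2 against 789 CPM), and miR-181c-5p lies near the dotted lines in all 3.

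The order of levels within the family differed between libraries at its top. In the control the order was miR-181b-5p, miR-181a-5p, miR-181d-5p, miR-181a-3p, miR-181c-5p, and each neighbouring pair had intervals that do not overlap. In the 3 min library miR-181b-5p and miR-181a-5p had overlapping intervals. In the 5 min library miR-181a-5p came first, but its interval of 789 to 936 CPM overlaps that of miR-181b-5p, 721 to 862 CPM. Adapter ligation in library construction can favour some RNA ends, so order between miRNAs is an order of reads and not of molecules.

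After 3 min of plasma, the members stood close to the control. miR-181a-5p, at 675 CPM after 3 min and 557 CPM in the control, was 1.21-fold higher (1.08 to 1.36). miR-181b-5p had 685 and 663 CPM in the 3 min and control libraries, a 1.03-fold ratio (0.927 to 1.15) whose log2 value of 0.05 turned to -0.01 when TMM was computed over all listed miRNAs. miR-181d-5p was at 1.10-fold (0.957 to 1.26) and miR-181a-3p at 1.14-fold (0.837 to 1.56), with intervals that include 1. For miR-181c-5p, with 4 counts after 3 min and 6 in the control, the ratio was 0.728 with an interval of 0.151 to 3.07.

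To be compared, a miRNA needed an average of 20 counts or more in the 3 libraries. This held for 231 miRNAs and for 4 of the 5 members, but not for miR-181c-5p. With a size rule of 1.5-fold, 0 of these 4 members were higher after 3 min and 0 were lower. Over the 231 miRNAs, 6.93% passed this rule on the higher side and 5.19% on the lower side. The median log2 ratio of the 4 members was 0.17, beside 0.05 over all 231, with an SD of 0.48 over those 231. miR-181a-5p held place 52 of 231 from the highest ratio and miR-181b-5p place 120.

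After 5 min, miR-181a-5p stood apart from its paralogs. It had 860.2 CPM after 5 min against 557 CPM in the control, 1.54-fold higher (1.37 to 1.74). miR-181b-5p, at 789 CPM against 663 CPM in the control, was 1.19-fold higher (1.06 to 1.34), and miR-181d-5p, at 462 CPM against 392 CPM, was 1.18-fold higher (1.01 to 1.37). These lower bounds rest on the scaling. The interval of miR-181b-5p included 1 under 1 of the 6 scalings tried, TMM over all listed miRNAs (0.940 to 1.19). That of miR-181d-5p included 1 under 4 of the 6, down to 0.899 to 1.22 with TMM over all listed miRNAs.

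miR-181a-3p, at 99.9 CPM after 5 min and 79.4 CPM in the control, was at 1.26-fold with an interval of 0.891 to 1.77 that includes 1. miR-181c-5p, with 3 counts after 5 min and 6 in the control, had a ratio of 0.842 (0.136 to 3.94). At 3 and 6 counts, a difference in miR-181c-5p was not detectable at this depth, and the interval of miR-181a-3p holds both 1 and the 1.54-fold ratio of miR-181a-5p.

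By the size rule, 1 of the 4 measured members was at least 1.5-fold higher after 5 min and 0 were lower. Over all 231 miRNAs, 17.3% passed on the higher side and 11.7% on the lower side, so a single call among 4 members is near the background. miR-181a-5p passed with little to spare. With TMM over miRNAs averaging 5 counts or more its ratio was 1.47-fold (1.31 to 1.66) and with TMM over all listed miRNAs 1.37-fold (1.22 to 1.55), which ends the call, while its interval lay above 1 under all 6 scalings tried. miR-181a-5p held place 38 of 231 from the highest ratio, miR-181a-3p place 63, miR-181b-5p place 76 and miR-181d-5p place 79. The median log2 ratio of the 4 members was 0.29, beside 0.05 over all 231, with an SD of 0.88.

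**Figure D2:**
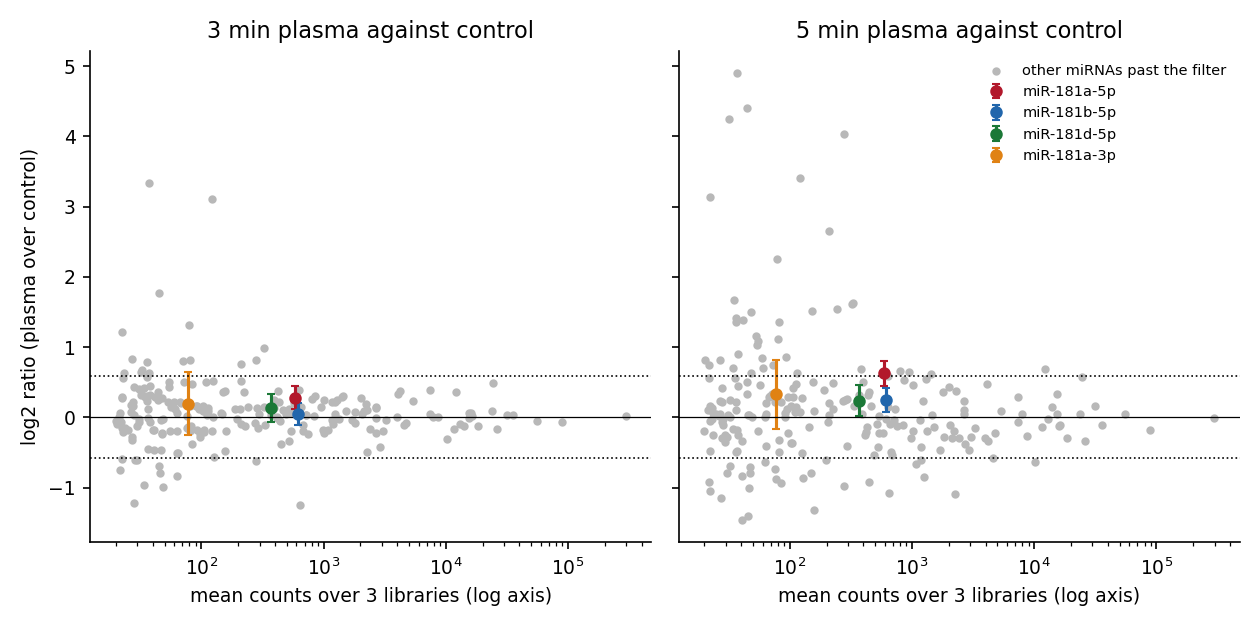
Log2 ratio of plasma over control against mean counts (log axis) for the 231 miRNAs past the count filter, after 3 min and after 5 min; coloured points are the 4 measured miR-181 members with exact 95% counting intervals, and dotted lines mark 1.5-fold. miR-181a-5p is at a log2 ratio of 0.63 after 5 min, just past the upper line, and the other 3 members lie between the lines in both panels.

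Both plasma libraries were compared with the same control library, so their ratios are not independent of each other. The ratio of 5 min to 3 min plasma leaves the control out, except in the scaling and the filter. miR-181a-5p, at 860.2 CPM after 5 min against 675 CPM after 3 min, was 1.27-fold higher (1.13 to 1.43). miR-181b-5p, at 789 against 685 CPM, was 1.15-fold higher (1.02 to 1.30), an interval that became 0.946 to 1.20 with TMM over all listed miRNAs. miR-181d-5p was at 1.07-fold (0.920 to 1.25), and its log2 ratio of 0.10 turned to -0.01 with TMM over all listed miRNAs. miR-181a-3p was at 1.10-fold (0.781 to 1.54). By the size rule 0 of the 4 members were higher or lower, where 13.0% of the 231 miRNAs passed on the higher side and 8.66% on the lower side.

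**Figure D3:**
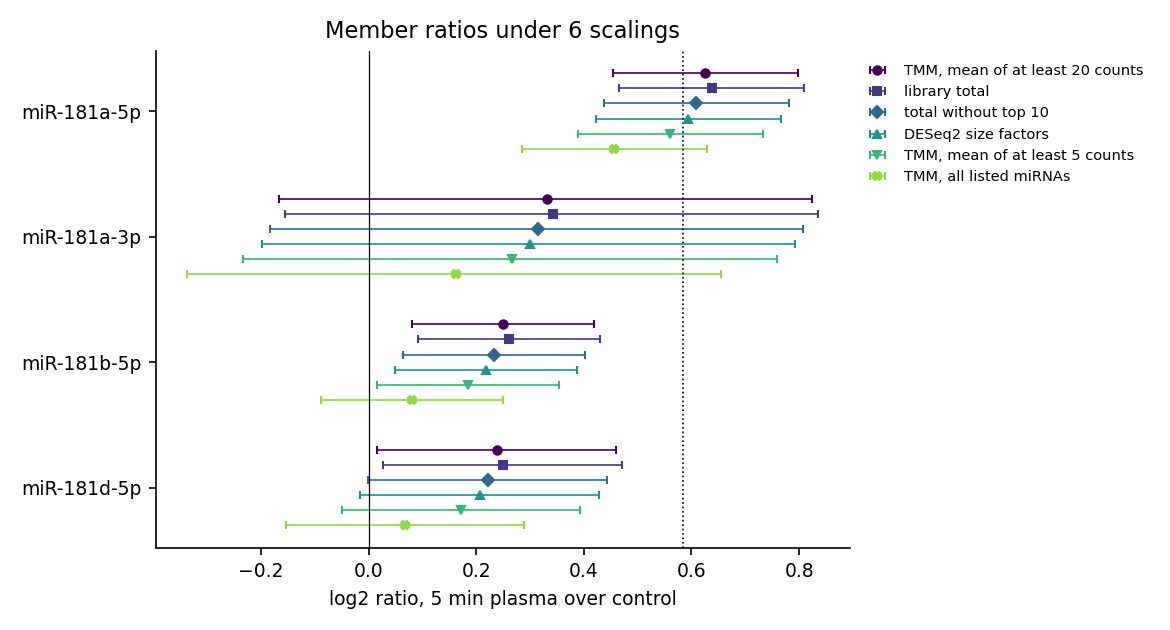
Log2 ratio of 5 min plasma over control for the 4 measured members under 6 scalings; bars are exact 95% counting intervals, the solid line marks no difference and the dotted line 1.5-fold. miR-181a-5p ranges from 0.46 to 0.64 and lies right of the solid line throughout, while the intervals of miR-181a-3p span the solid line under each scaling.

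The division of reads among the paralogs needs no scaling between libraries, and it shifted toward miR-181a-5p. The 4 5p arms summed to 1693, 1721 and 1314 counts, which is 0.162%, 0.178% and 0.213% of the library in order of exposure. Of this sum miR-181a-5p took 34.4% (32.2 to 36.8), 37.6% (35.3 to 39.9) and 40.6% (37.97 to 43.4) in order of exposure. The 5 min interval lies above that of the control, and the 3 min interval overlaps both.

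miR-181b-5p took 41.0% (38.6 to 43.4), 38.2% (35.9 to 40.5) and 37.3% (34.7 to 39.97) of the 5p sum in the same order. miR-181d-5p took 24.2% (22.2 to 26.3), 23.998% (21.997 to 26.1) and 21.8% (19.6 to 24.2). Neither had intervals that separate any pair of libraries, and miR-181c-5p stayed under 1% throughout, at 0.354%, 0.232% and 0.228%.

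Set against each other, miR-181a-5p and miR-181b-5p had a count ratio of 1.09 after 5 min and 0.840 in the control, a ratio of ratios of 1.297 (1.10 to 1.54). Against miR-181d-5p the ratio of miR-181a-5p was 1.86 after 5 min and 1.42 in the control, a ratio of ratios of 1.31 (1.08 to 1.59). By contrast, miR-181b-5p and miR-181d-5p kept a ratio of 1.71 after 5 min and 1.69 in the control, with a ratio of ratios of 1.01 (0.830 to 1.23). The intervals exclude 1 for miR-181a-5p against each of the arms that carry A9U and C10U, and include 1 between those arms. After 3 min, the ratio of ratios of miR-181a-5p to miR-181b-5p against the control was 1.17 (1.001 to 1.37), and that of miR-181a-5p to miR-181d-5p was 1.10 (0.920 to 1.32). Between 5 min and 3 min plasma the interval for miR-181a-5p over miR-181b-5p, 0.936 to 1.31, included 1.

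**Figure D4:**
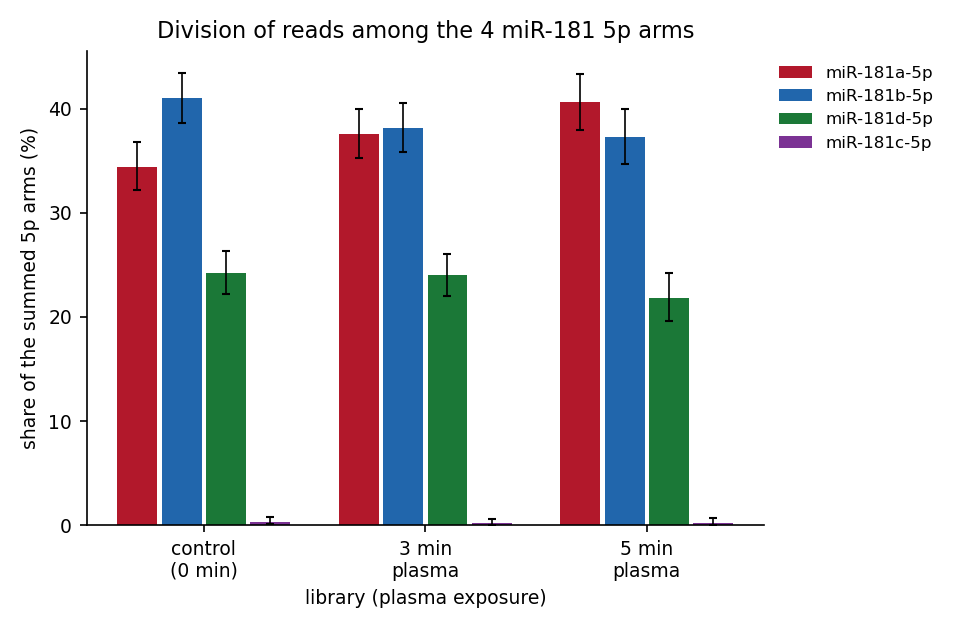
Share (%) of each 5p arm in the summed counts of the 4 miR-181 5p arms in the control, 3 min and 5 min libraries, with exact 95% binomial intervals. The share of miR-181a-5p is 34.4%, 37.6% and 40.6% in order of exposure, and miR-181c-5p is under 1% in each library.

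Because the reads of miR-181b-5p and miR-181d-5p could be exchanged by a single base, the pair was also taken as 1 value. Summed, miR-181b-5p and miR-181d-5p had 777 counts after 5 min and 1104 in the control, a scaled ratio of 1.19-fold (1.08 to 1.30). miR-181a-5p with miR-181c-5p had 537 counts after 5 min and 589 in the control, a scaled ratio of 1.54-fold (1.36 to 1.73). These pooled ratios lie next to the separate ones, 1.54-fold for miR-181a-5p and 1.19-fold for miR-181b-5p. Pooling could hardly move them, because miR-181c-5p added only 3 and 6 counts and miR-181d-5p alone was at 1.18-fold. They therefore do not show how well reads were divided within a pair.

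The balance of miR-181a-3p to miR-181a-5p showed no difference between libraries beyond counting error. It is not the balance of 1 hairpin, because miR-181a-3p comes from MIR181A1 and miR-181a-5p can come from MIR181A1 or MIR181A2. miR-181a-3p made up 12.5% (10.05 to 15.2), 11.9% (9.60 to 14.4) and 10.4% (8.07 to 13.1) of the reads of miR-181a-3p and miR-181a-5p, in order of exposure. The ratio of ratios of miR-181a-3p to miR-181a-5p, 5 min against control, was 0.816 (0.565 to 1.17). This interval includes 1 but also ratios down to 0.565, and its width comes from the 62 to 87 counts of miR-181a-3p per library.

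The 3p arms differ in sequence between loci where miR-181a-5p and miR-181b-5p do not. They divide the 3p reads by locus as named in the lists, and say nothing of the 5p reads. miR-181b-3p (21 bases) and miR-181b-2-3p (20 bases) share a seed and are close in sequence. The treatment of reads that fit several miRNAs is not given, so the split of these reads between chromosomes 1 and 9 is uncertain. The chromosome 1 hairpins, through miR-181a-3p and miR-181b-3p, gave 97 of 109 reads of 3p arms in the control, 103 of 115 after 3 min and 71 of 83 after 5 min. These are 89.0% (81.6 to 94.2), 89.6% (82.5 to 94.5) and 85.5% (76.1 to 92.3). The chromosome 9 hairpins, through miR-181a-2-3p and miR-181b-2-3p, gave 1, 1 and 0 reads, and the chromosome 19 hairpins 11, 11 and 12.

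Of the 5 related 3p arms, which are not members and were all under the count filter, miR-181b-3p had 14, 16 and 9 counts and miR-181c-3p had 10, 9 and 12, in order of exposure. miR-181a-2-3p, the arm that would mark MIR181A2, had 0 counts in every library, with exact intervals that reach up to 3.53, 3.85 and 5.94 CPM in order of exposure. miR-181b-2-3p had 1, 1 and 0 counts and miR-181d-3p 1, 2 and 0. For miR-181c the 3p arm was the more counted arm, at 62.5% (35.4 to 84.8), 69.2% (38.6 to 90.9) and 80.0% (51.9 to 95.7) of the reads of both arms, on 16, 13 and 15 reads. The control and 3 min intervals include an equal division of the arms. This balance, like that of miR-181d, rests on 5p counts whose separate values within a close pair are uncertain. For miR-181d the 3p arm was 0.243% (0.00616 to 1.35), 0.482% (0.0584 to 1.73) and 0% of both arms, the last with an upper bound of 1.28%. The share of 3p reads from a locus is not the share of its 5p reads, since arm balance can differ between hairpins.

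**Figure D5:**
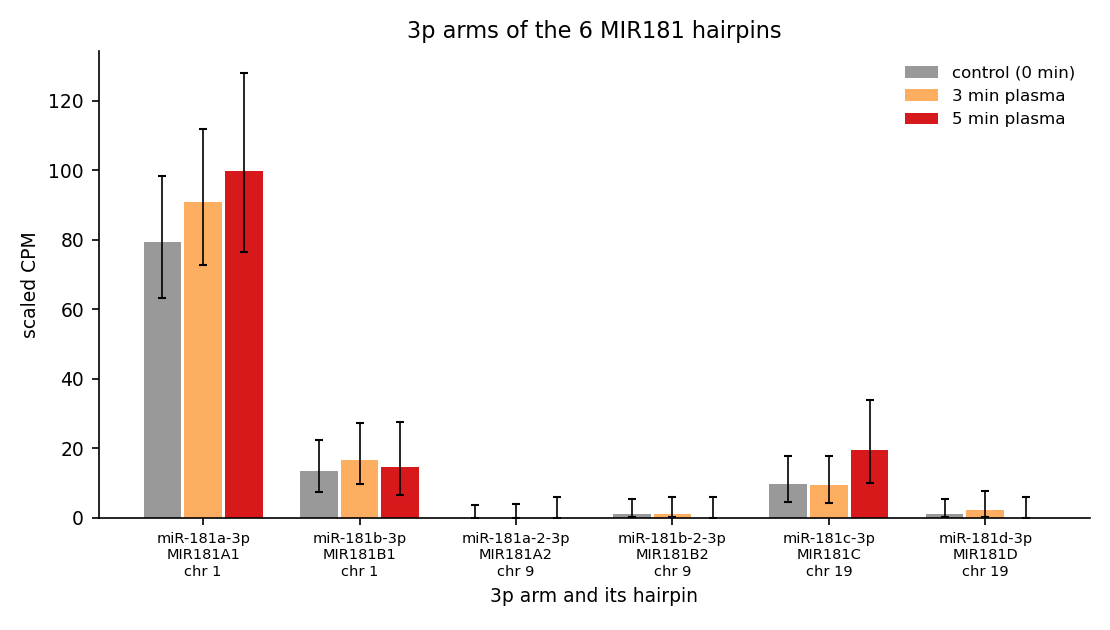
Scaled CPM of the 3p arms of the 6 MIR181 hairpins, grouped by chromosome, in the control, 3 min and 5 min libraries, with exact 95% counting intervals. miR-181a-3p of chromosome 1 is at 79.4, 90.8 and 99.9 CPM in order of exposure, and the chromosome 9 arms have 1 count or none in each library.

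Likeness to miR-181a-5p was measured over the 3 libraries as the Euclidean distance between centred log2 scaled CPM values, among 128 other miRNAs averaging 100 counts or more. With 3 points this describes the pattern and no more. The 5 nearest were miR-31-5p at a distance of 0.01, miR-186-5p at 0.03, miR-29a-3p at 0.06, miR-146a-5p at 0.06 and miR-101-3p at 0.09. miR-31-5p, the nearest, had 1409, 1580 and 1289 counts, or 1347, 1648 and 2076 CPM, in order of exposure. The paralogs were farther away, with miR-181b-5p at 0.27 and miR-181d-5p at 0.28, and miR-181a-3p lay at 0.21. Of the 128, 26 lay nearer to miR-181a-5p than miR-181b-5p did, and 21 nearer than miR-181a-3p. miR-181a-3p itself averaged 77.3 counts, under the 100 asked of the 128, so counting error weighs more on its distance.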

How the data were processed

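Small RNA libraries were made from total RNA of SK-MEL-2 cells with a NEBNext small RNA kit, per the labels' protocols. The authors deposited whole-number read counts per mature miRNA, 1 column a library. Bowtie2, bedtools and edgeR were used, per the submitters' processing notes, with no version or role. What was done about build, annotation, trimming, strand and multi-mapping reads was not given in the sources used here.

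Counts were scaled with TMM (edgeR 4.0.16, R 4.3.3) over the 231 miRNAs averaging 20 counts or more. Each ratio of 2 libraries has a 95% interval, made from the exact Clopper-Pearson bounds on how its counts divide between them; levels have exact Poisson intervals, shares binomial ones, and ratios of ratios conditional exact ones. With 1 library a group there was no test. The ratio step was run on simulated counts with known folds, which carried counting error alone and no spread between cultures. Alternatives were 4 other scalings, among them DESeq2 1.42.0 size factors, 2 other filters, a fold of 2 and pooled paralogs. Named miRNAs were the 5 members, related arms, miRNAs sharing the seed, the 5 most alike in pattern, a list of lymphoid and neural miRNAs and marker lists. The members and lists were chosen with earlier results of these data known. Python 3.11.15 with scipy 1.17.1 was used.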

Additional observations from a re-analysis of the deposited data

How the results depend on the processing

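The 4 scalings planned and 1 added after seeing the data, TMM over miRNAs averaging 5 counts or more, kept the signs of the member ratios, except miR-181b-5p after 3 min and miR-181d-5p between 5 and 3 min plasma. TMM over all listed miRNAs moved the median log2 ratio of all miRNAs by -0.17 for 5 min against control and -0.11 for 5 min against 3 min. There the summed 5p arms had log2 ratios of 0.22 and 0.13, against 0.39 and 0.24. In that scaling 27 miRNAs were at least 1.5-fold higher and 40 lower after 5 min, against 40 and 27; 13 and 13 after 3 min, against 16 and 12; and 23 and 31 between 5 and 3 min, against 30 and 20. Members higher after 5 min numbered 0 under that scaling and at a fold of 2. They also numbered 0 under both other filters, which changed the scaling as well: TMM was recomputed over the wider sets, and with no filter it was the TMM over all listed miRNAs.

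Among miRNAs averaging 5 counts or more, 43 miRNAs were higher and 38 lower after 3 min, 85 and 55 after 5 min, and 89 and 45 between 5 and 3 min. With no filter these were 79 and 66, 128 and 83, and 134 and 76; miRNAs with few counts enter there. At a fold of 2 they were 5 and 2, 22 and 8, and 15 and 2. Pooling miR-181d-5p with miR-181b-5p gave shares of 65.2%, 62.2% and 59.1% in order of exposure, by construction. Adding miR-181a-2-3p, at 0, left the arm balance as it was. No paired analysis was possible because each group is 1 library. Depth limits miR-181c-5p and miR-181a-3p.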

Other observations

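Of 13 miRNAs with lymphoid, haematopoietic or neural roles like those of miR-181, 7 passed the count filter. After 5 min of plasma 0 of these 7 were at least 1.5-fold higher and 1 was at least 1.5-fold lower, where 17.3% of all 231 miRNAs were higher by this rule and 11.7% lower. The median log2 ratio of the 7 was 0.12, beside 0.05 over all 231. After 3 min 0 were higher and 0 lower, where 6.93% and 5.19% of the 231 were, and the median was 0.19, beside 0.05. miR-155-5p, an immune miRNA at a level close to that of the miR-181 arms, had 838, 789 and 540 counts, or 801, 823 and 869.9 CPM, in order of exposure. The lower one was miR-128-3p, a neuronal miRNA, with 1381, 1607 and 909 CPM in order of exposure, or a log2 ratio of -0.60 after 5 min. The highest log2 ratio of the 7 after 5 min was 0.54, for miR-146a-5p. This miRNA is also on the melanocyte lineage list and among the 5 nearest to miR-181a-5p in pattern. Among those under the filter, miR-124-3p of neurons and miR-223-3p of myeloid cells had 0 counts in all 3 libraries. The others were detected at few counts. In order of exposure, miR-150-5p had 7, 4 and 4 counts and miR-132-3p had 5, 3 and 1. miR-142-3p had 1, 4 and 4 counts and miR-142-5p had 2, 1 and 1.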
